A study of Mus musculus with 6 samples.

Results

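The 10 genes described here carry glucose from the blood to the committed step of glycolysis in the mouse left ventricle. They are the transporter genes Slc2a1 and Slc2a4, the hexokinase genes Hk1 and Hk2, the isomerase gene Gpi1, the phosphofructokinase genes Pfkm, Pfkl and Pfkp, and the bifunctional regulator genes Pfkfb1 and Pfkfb2. They were chosen by name, with earlier results of these data known, and all 10 are among the 12072 genes of the authors' table. RNA came from 30-week-old mice on chow, 6 of them CS-Mpc2-/-, a deletion of the pyruvate carrier gene Mpc2, and 6 fl/fl, which by the usual notation carry floxed alleles. RNA of 2 hearts was pooled per library, so each genotype has 3 libraries of separate animals. The labels state neither the Cre driver, and so the cells that lose Mpc2, nor the strain.

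In heart muscle glucose enters mainly through GLUT4, the product of Slc2a4, which insulin and contraction move to the cell surface, and to a lesser extent through GLUT1, the product of Slc2a1, which prevails before birth. Hexokinase traps it as glucose 6-phosphate, which feeds glycogen, the pentose phosphate pathway or, after Gpi1, glycolysis. Phosphofructokinase then makes the committed step, and the PFKFB enzymes set its pace by making and removing a second fructose bisphosphate that activates it. Loss of the mitochondrial pyruvate carrier leaves the end product of this route in the cytosol, and the series title sets it beside glycogen accumulation and heart failure.

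Values are read coverage per gene, as parts of 1000000 of the library total (ppm). The smallest value of a library is called its smallest step, and at least 99.99% of its values were whole multiples of it. Coverage depth, in units of 1000000 such steps, was 278 to 319 in the CS-Mpc2-/- libraries. It was 92.9 to 389 in the fl/fl libraries, with fl/fl replicates 1 and 2 the shallowest. These steps are not read counts. A pair of libraries stood apart from their groups. Within a genotype, values are listed in the order of replicates 1, 2 and 3. Mpc2 had 14.9, 18.2 and 46.3 ppm in the CS-Mpc2-/- libraries, against 45.2, 38.9 and 27.7 ppm in the fl/fl libraries. Replicate 3, as labelled, of CS-Mpc2-/- thus had the highest Mpc2 of all 6 libraries, which goes against its label, and it was kept in its labelled group. The log2 difference of Mpc2 was -0.63 ± 0.35 (SE), with an exact permutation p of 0.4, and it was -1.11 without that library and -1.30 without replicate 3 of both groups. On the first principal component of all genes (54.6% of the variance) the CS-Mpc2-/- libraries lay at 30.8, 26.4 and 18.1 and the fl/fl libraries at -47.8, -42.3 and 14.8, so fl/fl replicate 3 lay beside the CS-Mpc2-/- libraries. For the 10 genes, where leaving out such a library changed a call, the result without it is given too. These libraries were singled out by their values in the same data. Tests that leave them out are therefore not independent support for a difference. The 7 cardiomyocyte markers were all present, at 874 ppm or more in every library. The markers of adipocytes and of atrial muscle were not analysed here.

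The promoters of 4 of the genes are shown because they belong to the pair with the largest differences, Pfkp and Pfkfb1, and to the gene of each entry step with a single annotated start, Slc2a1 and Hk2. Each run covers 250 bases before to 50 after a RefSeq start on GRCm38.p6, 5′ to 3′ on the strand of the gene. Capitals mark ACGTG, a form of the core that hypoxia-inducible factors bind, and the GC box (GGGCGG), each searched on both strands. The other form of that core, GCGTG, was neither searched nor marked, so windows without ACGTG can still hold the core.
Pfkp, chr13:6648722-6649021, minus strand: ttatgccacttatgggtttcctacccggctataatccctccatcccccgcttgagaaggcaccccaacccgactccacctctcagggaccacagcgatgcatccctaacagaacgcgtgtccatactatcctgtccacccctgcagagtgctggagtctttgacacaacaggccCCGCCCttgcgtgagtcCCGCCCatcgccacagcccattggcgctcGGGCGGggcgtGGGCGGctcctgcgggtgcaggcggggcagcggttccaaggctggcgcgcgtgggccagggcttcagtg
Pfkfb1, chrX:150587993-150588292, plus strand: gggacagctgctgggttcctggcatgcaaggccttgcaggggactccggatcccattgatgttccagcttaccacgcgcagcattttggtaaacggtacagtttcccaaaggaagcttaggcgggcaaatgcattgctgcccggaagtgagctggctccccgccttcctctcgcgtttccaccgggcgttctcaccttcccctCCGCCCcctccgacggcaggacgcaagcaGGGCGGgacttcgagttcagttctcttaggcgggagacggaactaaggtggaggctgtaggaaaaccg
Slc2a1, chr4:119108495-119108794, plus strand: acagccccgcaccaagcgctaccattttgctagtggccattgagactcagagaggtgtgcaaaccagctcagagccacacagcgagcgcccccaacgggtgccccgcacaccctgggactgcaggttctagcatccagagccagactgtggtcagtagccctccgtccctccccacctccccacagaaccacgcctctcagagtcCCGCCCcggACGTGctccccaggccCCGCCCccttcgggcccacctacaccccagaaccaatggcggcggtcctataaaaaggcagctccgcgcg
Hk2, chr6:82774405-82774704, minus strand: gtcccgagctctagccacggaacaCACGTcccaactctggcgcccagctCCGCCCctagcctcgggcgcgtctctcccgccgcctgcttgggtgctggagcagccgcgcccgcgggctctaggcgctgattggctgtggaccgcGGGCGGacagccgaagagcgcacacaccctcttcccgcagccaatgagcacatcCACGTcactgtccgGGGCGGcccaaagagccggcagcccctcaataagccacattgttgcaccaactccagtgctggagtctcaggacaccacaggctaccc

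The Pfkp window held 4 GC boxes and 0 copies of ACGTG. The Pfkfb1 window, 1 of 4 for that gene and the one nearest its annotated start, held 2 GC boxes and 0 copies of ACGTG. Slc2a1 had 1 copy of ACGTG between its 2 GC boxes, and Hk2 had 2 copies of ACGTG and 3 GC boxes. RefSeq gives 18 such windows for 9 of the 10 genes, some of them overlapping, and none was matched for Slc2a4. ACGTG stood in 7 of the 18 (38.9%), against 19.6% of all 32851 mouse windows of that length, and GGGCGG in 7 of the 18 (38.9%), against 35.7%. The E-box CACGTG, which contains ACGTG, stood in 2 of 18 windows (11.1%), against 7.15%. The MEF2 consensus was in 1 window, a downstream start of Pfkfb1 (5.56%), against 3.19%. These are letter matches, and binding was not measured.

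With all 6 libraries, 0 of the 10 genes passed the test over the whole table (limma, Benjamini-Hochberg adjusted p under 0.05), and neither did any of the 12072 genes (0%). At an unadjusted p under 0.05 there were 2 of the 10, Pfkfb1 and Pfkp, against 13.5% of all genes. The CS-Mpc2-/- and fl/fl values overlapped for each of the 10 genes, while 14.5% of all genes had no overlap. The fitted difference was positive for 4 of the 10 and negative for 6, with a median of -0.13 on the log2 scale, and over all genes 54.4% were positive with a median of 0.04. Without fl/fl replicate 3, Pfkp was called higher and Pfkfb1 lower, each 1 of the 10, where 6.51% of all genes were called higher and 4.4% lower. In that setting the groups did not overlap for 1 member that was higher (24.4% of all genes) and 5 that were lower (18.9%), namely Slc2a4, Hk2, Pfkm, Pfkfb1 and Pfkfb2. Without replicate 3 of both groups 2 members were called higher, Pfkp and Gpi1 (7.24% of all genes), and 3 lower, Slc2a4, Hk2 and Pfkfb1 (5.3%).

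**Figure D1:**
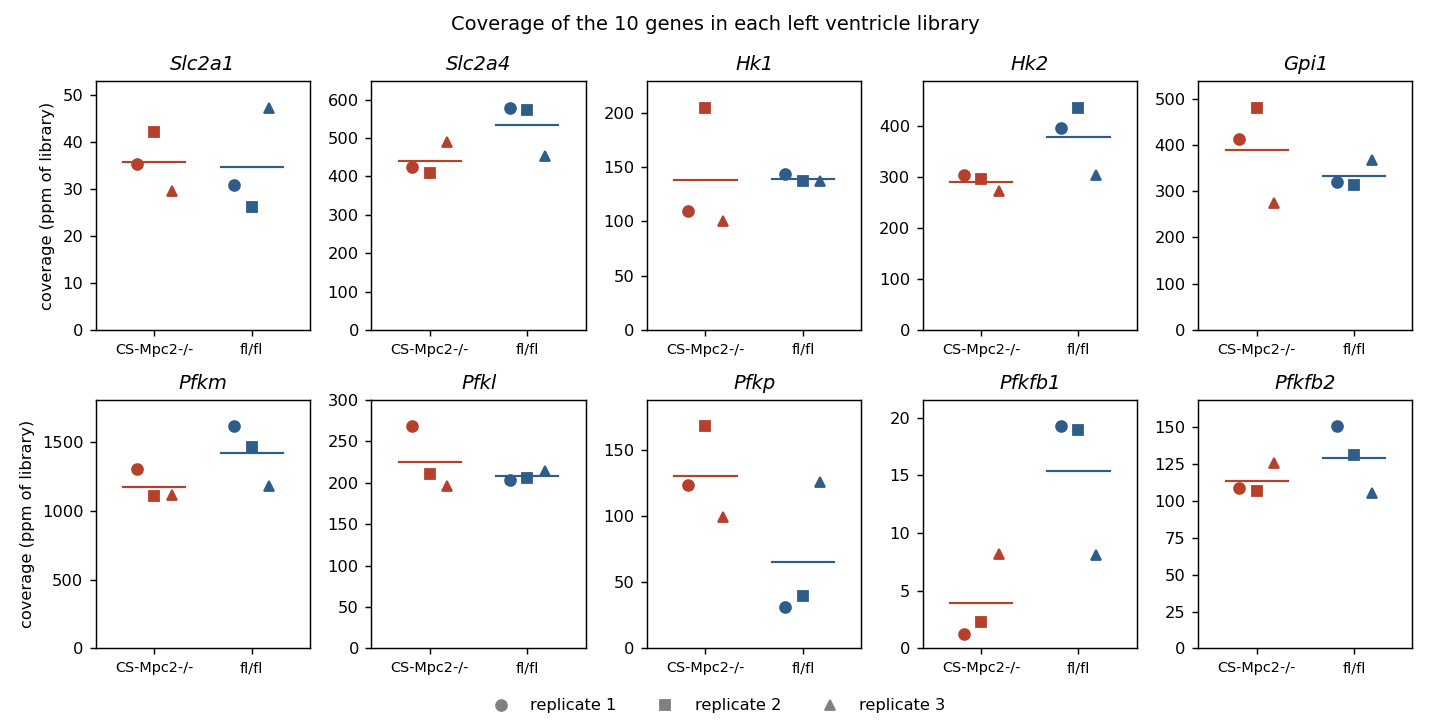
Coverage in ppm of the library total for each of the 10 genes, with 3 CS-Mpc2-/- libraries (red) left of 3 fl/fl libraries (blue) in every panel. Markers give the replicate and lines the group mean. The fl/fl replicate 3 triangle lies among or beside the CS-Mpc2-/- points for Pfkp, Pfkfb1, Hk2, Slc2a4, Pfkm and Pfkfb2.

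Slc2a4, the insulin-responsive transporter and the main one of adult heart, lies on chromosome 11 from 69942539 to 69948188 of mm10. It had 426, 409 and 490 ppm in the CS-Mpc2-/- libraries, against 579, 573 and 455 ppm in the fl/fl libraries. All CS-Mpc2-/- libraries were below fl/fl replicates 1 and 2, and fl/fl replicate 3 lay inside their range. The means were 442 ± 42.7 ppm in CS-Mpc2-/- and 535 ± 70.2 ppm in fl/fl (SD, n = 3 each). Slc2a4 thus differed by -0.27 ± 0.17 on the log2 scale (SE), with a 95% interval of -0.64 to 0.10 and a limma adjusted p of 0.499. Without fl/fl replicate 3 it was -0.39 ± 0.16 with a limma adjusted p of 0.145, and without replicate 3 of both groups it was -0.46 ± 0.14 with a limma adjusted p of 0.0437.

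Slc2a1, the insulin-independent transporter, lies on chromosome 4 from 119108711 to 119137983. It had 35.3, 42.0 and 29.6 ppm in the CS-Mpc2-/- libraries, against 30.7, 26.2 and 47.2 ppm in the fl/fl libraries. The highest value of all was in fl/fl replicate 3, and the groups were interleaved. The means were 35.6 ± 6.22 ppm in CS-Mpc2-/- and 34.7 ± 11.1 ppm in fl/fl (SD, n = 3 each). The log2 difference of 0.07 ± 0.24 (SE) had a 95% interval of -0.46 to 0.59 and a limma adjusted p of 0.927, and it was 0.30 ± 0.23 without fl/fl replicate 3. Its sign turned without CS-Mpc2-/- replicate 2 (-0.06) or fl/fl replicate 2 (-0.11).

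Per kilobase of transcript, Slc2a1 made up a small part of the pair. Its share of the summed signal of Slc2a1 and Slc2a4 was 6.03, 7.37 and 4.47% in the CS-Mpc2-/- libraries, against 3.94, 3.42 and 7.45% in the fl/fl libraries. Slc2a4 held the rest, 92.6 to 95.5% in CS-Mpc2-/- and 92.6 to 96.6% in fl/fl. The share of Slc2a1 differed by 1.02 percentage points (exact permutation p = 0.6), a difference smaller than the spread within fl/fl (SD 2.19 points, n = 3). The summed signal of the pair was 186 ± 15.2 ppm per kb in CS-Mpc2-/- and 223 ± 24.5 ppm per kb in fl/fl (SD, n = 3 each, exact permutation p = 0.2).

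Hk2, the insulin-regulated hexokinase of adult muscle, which binds the mitochondrial outer membrane, lies on chromosome 6 from 82725025 to 82774454. It had 304, 296 and 273 ppm in the CS-Mpc2-/- libraries, against 396, 436 and 303 ppm in the fl/fl libraries. The CS-Mpc2-/- libraries were close to each other, and fl/fl replicate 3 fell between CS-Mpc2-/- replicates 1 and 2. The means were 291 ± 16.2 ppm in CS-Mpc2-/- and 378 ± 68.2 ppm in fl/fl (SD, n = 3 each). The fitted log2 difference was -0.36 ± 0.18 (SE), with a 95% interval of -0.74 to 0.02 and a limma adjusted p of 0.393. Without fl/fl replicate 3 it was -0.51 ± 0.16 with an adjusted p of 0.0533, and without replicate 3 of both groups the adjusted p was 0.0478.

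Hk1, the hexokinase found in most cell types, lies on chromosome 10 from 62268855 to 62379908. It had 109, 205 and 100.1 ppm in the CS-Mpc2-/- libraries, against 144, 138 and 137 ppm in the fl/fl libraries. The fl/fl libraries were nearly alike, while CS-Mpc2-/- replicate 2 was above and the other CS-Mpc2-/- libraries were below all of them. The means were 138 ± 57.9 ppm in CS-Mpc2-/- and 139 ± 3.79 ppm in fl/fl (SD, n = 3 each). The log2 difference was -0.09 ± 0.24 (SE), with a 95% interval of -0.61 to 0.43 and a limma adjusted p of 0.898, and -0.41 ± 0.18 without CS-Mpc2-/- replicate 2 (adjusted p = 0.545). Its sign turned without CS-Mpc2-/- replicate 1 (0.04) or 3 (0.10).

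The mixture of the hexokinase pair stood apart in that same library. Over every listed hexokinase gene, Hk2 averaged 40.8% of the length-scaled signal in CS-Mpc2-/- and 50.3% in fl/fl. In that wider family Hk1 averaged 24.1% in CS-Mpc2-/- and 24.0% in fl/fl, and genes other than this pair held the rest. The wider share of Hk2 was 42.8% in fl/fl replicate 3, inside the CS-Mpc2-/- range of 35.9 to 45.8%. Of the signal of Hk1 and Hk2 alone, Hk2 held 68.3, 52.9 and 67.9% in the CS-Mpc2-/- libraries, against 68.1, 71.1 and 63.2% in the fl/fl libraries. The difference within the pair, -4.44 percentage points, was within the spread (exact permutation p = 0.6). It was 0.63 points without CS-Mpc2-/- replicate 2 and -9.00 points without replicate 3 of both groups. The summed signal of Hk1 and Hk2 was 85.1 ± 14.8 ppm per kb in CS-Mpc2-/- and 101 ± 12.7 ppm per kb in fl/fl (SD, n = 3 each, exact permutation p = 0.2).

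Gpi1, glucose 6-phosphate isomerase, lies on chromosome 7 from 34201330 to 34230336. It had 412, 480 and 273 ppm in the CS-Mpc2-/- libraries, against 320, 314 and 367 ppm in the fl/fl libraries. Among all 6 libraries the one labelled CS-Mpc2-/- replicate 3 was the lowest, and the other CS-Mpc2-/- libraries were the highest. The means were 388 ± 105 ppm in CS-Mpc2-/- and 334 ± 28.7 ppm in fl/fl (SD, n = 3 each). Gpi1 thus differed by 0.18 ± 0.21 on the log2 scale (SE), with a 95% interval of -0.27 to 0.63 and a limma adjusted p of 0.721. It was 0.49 ± 0.15 without replicate 3 of both groups (adjusted p = 0.0445) and 0.01 ± 0.22 without CS-Mpc2-/- replicate 2.

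Pfkm, the muscle phosphofructokinase, had the highest coverage of the 10 genes and ranked 70 among all genes by mean ppm. It lies on chromosome 15 from 98092589 to 98132451. It had 1301, 1107 and 1119 ppm in the CS-Mpc2-/- libraries, against 1616, 1466 and 1178 ppm in the fl/fl libraries. All CS-Mpc2-/- libraries were below fl/fl replicates 1 and 2, and fl/fl replicate 3 was inside their range. The means were 1175 ± 109 ppm in CS-Mpc2-/- and 1420 ± 222 ppm in fl/fl (SD, n = 3 each). On the log2 scale Pfkm differed by -0.26 ± 0.19 (SE), with a 95% interval of -0.67 to 0.14 and a limma adjusted p of 0.554, and -0.39 ± 0.17 without fl/fl replicate 3 (adjusted p = 0.159).

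Pfkl, the liver-type subunit, lies on chromosome 10 from 77986947 to 78010083. It had 268, 210 and 196 ppm in the CS-Mpc2-/- libraries, against 203, 206 and 215 ppm in the fl/fl libraries. Apart from CS-Mpc2-/- replicate 1 the libraries were close together. The log2 difference of 0.10 ± 0.17 (SE) had a 95% interval of -0.27 to 0.46 and a limma adjusted p of 0.824, and it was -0.035 without CS-Mpc2-/- replicate 1.

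Pfkp, the platelet-type subunit, which many non-muscle cells use, lies on chromosome 13 from 6579768 to 6648777 and had the largest positive difference of the 10. It had 124, 168 and 99.6 ppm in the CS-Mpc2-/- libraries, against 31.6, 39.6 and 126 ppm in the fl/fl libraries. The CS-Mpc2-/- libraries were each more than double fl/fl replicates 1 and 2, while fl/fl replicate 3 lay inside the CS-Mpc2-/- range. The means were 131 ± 34.8 ppm in CS-Mpc2-/- and 65.7 ± 52.2 ppm in fl/fl (SD, n = 3 each), a ratio of 1.99, and the ratio to fl/fl replicates 1 and 2 alone was 3.67. The log2 difference was 1.22 ± 0.40 (SE), with a 95% interval of 0.35 to 2.09 and a limma adjusted p of 0.264, which was 1.82 ± 0.22 with an adjusted p of 0.000185 without fl/fl replicate 3. The authors' deposited table gives Pfkp a ratio of 1.99 and an unadjusted p of 0.148. Of the 4145 bases of its longest coding transcript, 748 lie opposite exons of Pitrm1, which had 70.4 to 80.0 ppm in CS-Mpc2-/- and 68.2 to 78.0 ppm in fl/fl.

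The mixture of phosphofructokinase subunits, which form mixed tetramers, followed these levels. Pfkp held 5.40, 8.43 and 5.17% of the length-scaled signal of the 3 genes in the CS-Mpc2-/- libraries, against 1.22, 1.67 and 6.10% in the fl/fl libraries. Pfkl held 13.0, 11.7 and 11.3% in the CS-Mpc2-/- libraries, against 8.75, 9.61 and 11.6% in the fl/fl libraries. Pfkm held the rest, 79.9 to 83.5% in CS-Mpc2-/- and 82.3 to 90.0% in fl/fl. In fl/fl replicates 1 and 2 the muscle subunit was therefore above, and each of the other subunits below, every CS-Mpc2-/- library, while fl/fl replicate 3 lay within the CS-Mpc2-/- range for all 3 genes. The group differences were -5.35 percentage points for Pfkm, 2.02 for Pfkl and 3.33 for Pfkp, with exact permutation p-values of 0.2, 0.2 and 0.3 (0.4, 0.4 and 0.45 adjusted over the 6 distinct shares). With the merged length of all exons the Pfkp difference was 1.33 points. Summed, the 3 genes had 500.1 ± 47.2 ppm per kb in CS-Mpc2-/- and 565 ± 63.6 ppm per kb in fl/fl (SD, n = 3 each, exact permutation p = 0.2).

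Pfkfb1, a bifunctional enzyme best known from liver and skeletal muscle, lies on chromosome X from 150588229 to 150643878 and had the largest negative difference of the 10. It had 1.28, 2.25 and 8.21 ppm in the CS-Mpc2-/- libraries, against 19.3, 18.9 and 8.09 ppm in the fl/fl libraries. The replicate 3 libraries of both groups were nearly equal, and the other libraries were far apart by genotype. The means were 3.92 ± 3.75 ppm in CS-Mpc2-/- and 15.4 ± 6.34 ppm in fl/fl (SD, n = 3 each), so the CS-Mpc2-/- mean was 25.4% of that in fl/fl. The log2 difference was -1.91 ± 0.49 (SE), with a 95% interval of -2.98 to -0.85. With a pseudocount of 5 ppm in place of 1 it was -1.22. Its limma adjusted p was 0.220, the smallest in the table and shared with other genes, and its unadjusted p ranked 103 among the 12072. Without fl/fl replicate 3 the difference was -2.29 ± 0.48 with an adjusted p of 0.00838, and without replicate 3 of both groups -2.88 ± 0.38 with an adjusted p of 0.000266. The authors' deposited table gives Pfkfb1 a ratio of 0.254 and an unadjusted p of 0.0539.

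The Pfkfb1 values rest on little coverage. They amount to 369, 718 and 2279 of the smallest steps in the CS-Mpc2-/- libraries, against 1788, 3819 and 3149 in the fl/fl libraries, where the next value above 1 step was 21 to 47 steps in any library. Among all its annotated exons 123 bases lie opposite exons of Apex2, a DNA repair gene, but 0 of the 1872 bases of the longest coding transcript do. Apex2, looked up after the Pfkfb1 values were seen, had 4.76, 7.34 and 13.8 ppm in the CS-Mpc2-/- libraries, against 20.6, 26.6 and 9.66 ppm in the fl/fl libraries. As for Pfkfb1, the lowest values were in CS-Mpc2-/- replicates 1 and 2 and the highest in fl/fl replicates 1 and 2. Since the strand setting of the counting is not given, coverage of these genes cannot be told apart where their exons lie opposite each other.

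Pfkfb2, the heart bifunctional enzyme, which insulin and adrenaline signals activate by phosphorylation, lies on chromosome 1 from 130689182 to 130729253. It had 109, 107 and 126 ppm in the CS-Mpc2-/- libraries, against 151, 132 and 105 ppm in the fl/fl libraries. The lowest library was fl/fl replicate 3, and the highest were fl/fl replicates 1 and 2. The log2 difference of -0.17 ± 0.18 (SE) had a 95% interval of -0.56 to 0.22 and a limma adjusted p of 0.698. Leaving out fl/fl replicate 1 gave -0.051, leaving out fl/fl replicate 3 gave -0.31, and leaving out replicate 3 of both groups gave -0.38. Of its 4425 transcript bases, 1197 are shared with a predicted gene on the same strand, Gm29427, that was not analysed here. Exons of other unanalysed genes lie opposite 356 of the 2884 transcript bases of Gpi1, 157 of the 4278 of Hk1 and 105 of the 3260 of Slc2a1.

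Of the isoform mixtures, the bifunctional pair alone had groups that did not overlap. Pfkfb1 held 2.71, 4.74 and 13.4% of the length-scaled signal of Pfkfb1 and Pfkfb2 in the CS-Mpc2-/- libraries, against 23.2, 25.3 and 15.4% in the fl/fl libraries. The replicate 3 libraries were again the nearest to each other. The difference was -14.4 percentage points, with an exact permutation p of 0.1, which is the smallest that 3 against 3 libraries can give. It was -7.22 points when the signal was not divided by transcript length. Adjusted over the 6 distinct shares tested the p was 0.4 (Benjamini-Hochberg over exact permutation tests). With Pfkfb3, the inducible isoform, and Pfkfb4 counted in, the average shares in CS-Mpc2-/- were 72.6% for Pfkfb2, 15.5% for Pfkfb3, 6.21% for Pfkfb4 and 5.71% for Pfkfb1, against 66.9%, 10.5%, 4.38% and 18.3% in fl/fl.

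**Figure D2:**
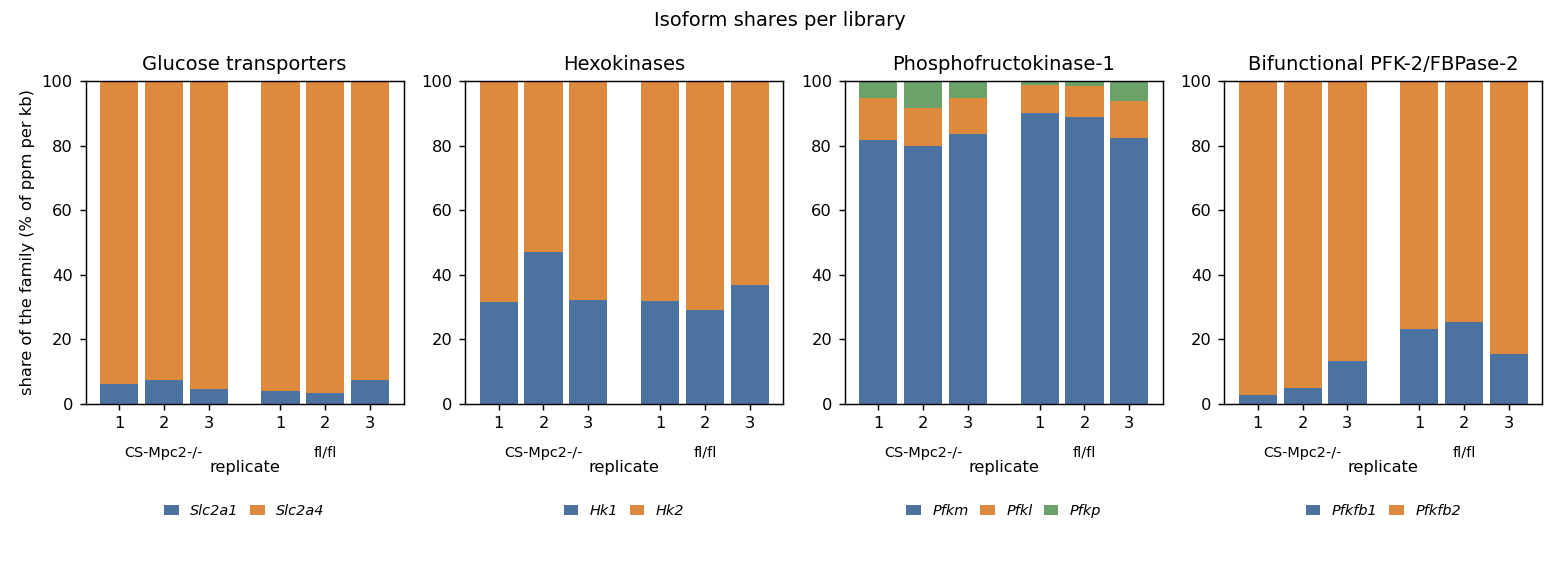
Stacked bars give each isoform's share, in percent, of the summed coverage per kilobase of the family members shown. The 3 CS-Mpc2-/- libraries are on the left and the 3 fl/fl libraries on the right. Among the members shown, Slc2a4, Hk2, Pfkm and Pfkfb2 held the larger part in all 6 libraries. The Pfkfb1 share was 2.71 to 13.4% in CS-Mpc2-/- and 15.4 to 25.3% in fl/fl.

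Ranked per kilobase in CS-Mpc2-/-, Pfkm led with a mean of 408 ppm per kb, followed by Slc2a4 at 175, Gpi1 at 135, Pfkl at 60.3, Hk2 at 52.8, Hk1 at 32.3, Pfkp at 31.5, Pfkfb2 at 25.7, Slc2a1 at 10.9 and Pfkfb1 at 2.09. In that ranking the library ranges of Slc2a4 and Gpi1, of Pfkl and Hk2, of Hk1 and Pfkp, and of Pfkp and Pfkfb2 overlapped. Within each CS-Mpc2-/- library Pfkl was nonetheless above Hk2, and the order of neighbours was not tested. In fl/fl the means per kb were 493 for Pfkm, 212 for Slc2a4, 116 for Gpi1, 68.6 for Hk2, 55.7 for Pfkl, 32.6 for Hk1, 29.2 for Pfkfb2, 15.8 for Pfkp, 10.6 for Slc2a1 and 8.23 for Pfkfb1. There Hk2 and Pfkl, and each pair of neighbours from Hk1 down to Pfkfb1, overlapped.

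**Figure D3:**
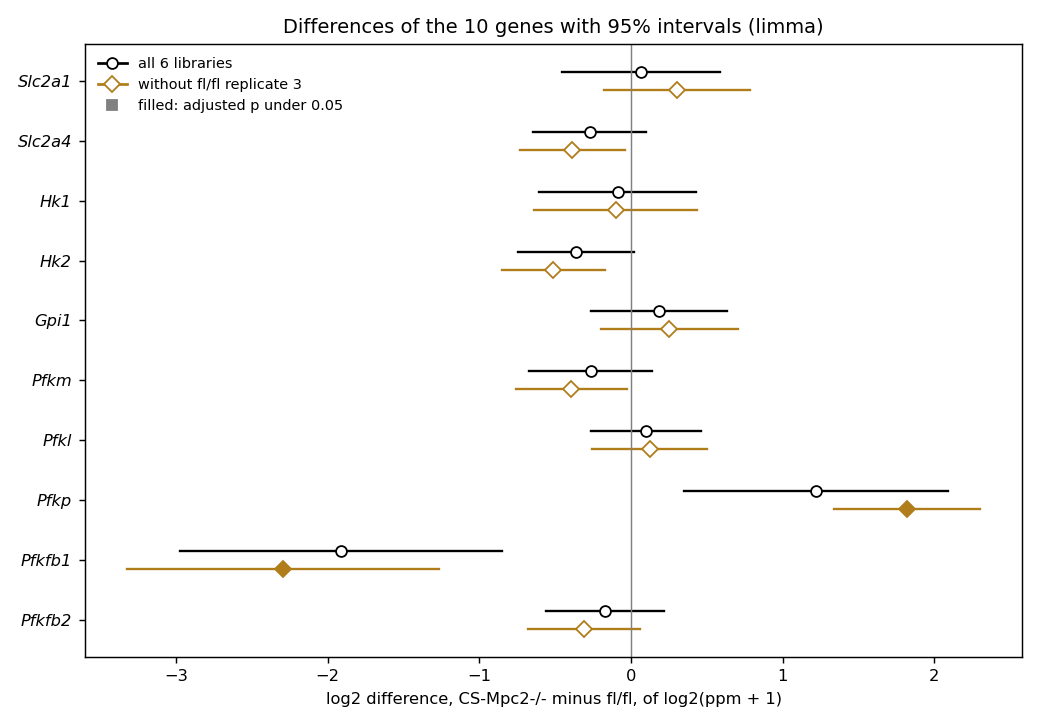
Log2 difference of each gene, CS-Mpc2-/- minus fl/fl, on the log2(ppm + 1) scale with its 95% interval from limma, with all 6 libraries (circles) and without fl/fl replicate 3 (diamonds). Filled symbols have an adjusted p under 0.05 over all genes, which holds for Pfkp at 1.82 and Pfkfb1 at -2.29, both without fl/fl replicate 3.

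Marker sums were shifted for some cell types and mixed for others, and their part in the gene differences was not tested. The summed coverage of the 7 cardiomyocyte markers was 53591 to 60522 ppm in CS-Mpc2-/-, against 51761 in fl/fl replicate 3 and 91786 or more in fl/fl replicates 1 and 2, with all 7 lower on average in CS-Mpc2-/-. Myh6 made up most of that sum, and the other 6 markers summed to 16338, 20203 and 19656 ppm in the CS-Mpc2-/- libraries, against 27049, 25774 and 20788 ppm in the fl/fl libraries. Without Myh6, fl/fl replicate 3 was thus the lowest of fl/fl but above all CS-Mpc2-/- libraries. The 6 fibroblast markers summed to 946 to 1723 ppm in CS-Mpc2-/- and 493 to 819 ppm in fl/fl, with all 6 higher on average in CS-Mpc2-/-. The 5 macrophage markers analysed, of 7, summed to 358 to 502 ppm in CS-Mpc2-/- and 262 to 357 ppm in fl/fl, and all 5 were higher on average. The 7 endothelial markers summed to 1183 to 1486 ppm in CS-Mpc2-/- and 1286 to 1336 ppm in fl/fl, with 4 higher and 3 lower on average in CS-Mpc2-/-. The 3 erythroid markers analysed, of 5, summed to 468 to 920 ppm in CS-Mpc2-/- and 567 to 836 ppm in fl/fl, with 1 higher and 2 lower on average. The 4 smooth muscle markers summed to 191 to 232 ppm in CS-Mpc2-/- and 189 to 231 ppm in fl/fl, with 2 higher and 2 lower. In such bulk tissue, fewer cells of a type and less RNA per cell cannot be told apart.

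Around the 10 genes, 8 lists of related genes held 72 genes, of which 62 were in the table. The lists too were chosen with earlier results of these data known, so their counts are descriptive. With all 6 libraries 0 of the 62 passed in either direction (limma adjusted p under 0.05, 0% of all genes), and 12 of the 62 (19.4%) had groups that did not overlap, against 14.5% of all genes. Without fl/fl replicate 3, 14 of the 62 were called, 5 higher and 9 lower, where 6.51% of all genes were called higher and 4.4% lower. The 5 were Hif1a, Pgam1, Pgk1, Gapdh and Aspscr1, and the 9 were Tbc1d4, Fbp2, Sort1, Klf15, Pik3r1, Mlxipl, Mef2d, Ldhb and Pgam2. In the list of GLUT4 vesicle traffic 6 of 13 differences were positive and 7 negative, with a median of -0.08 on the log2 scale (0.02 without fl/fl replicate 3). Tbc1d4, also called AS160, which restrains GLUT4 vesicles until insulin signals release them, had 69.0, 63.0 and 110 ppm in the CS-Mpc2-/- libraries, against 173, 213 and 100.3 ppm in the fl/fl libraries. Its log2 difference was -0.98 ± 0.28 (SE, limma adjusted p = 0.220), and fl/fl replicate 3 lay below CS-Mpc2-/- replicate 3. The Tbc1d4 difference was -1.29 ± 0.23 without fl/fl replicate 3 (limma adjusted p = 0.0029). Sort1, the sortilin that helps form those vesicles, had 71.0, 66.9 and 80.0 ppm in CS-Mpc2-/- and 119, 135 and 88.8 ppm in fl/fl, with no overlap and a difference of -0.63 ± 0.19 (limma adjusted p = 0.239), or -0.80 ± 0.18 without fl/fl replicate 3 (adjusted p = 0.0121).

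Among 12 regulators of glucose entry, 4 differences were positive and 8 negative, with a median of -0.10 on the log2 scale, and 4 of the 12 (Hif1a, Arrdc4, Myc and Klf15) had groups that did not overlap, against 14.5% of all genes. Hif1a, the oxygen-sensing factor known to activate Slc2a1 and glycolytic genes, had 220, 204 and 213 ppm in the CS-Mpc2-/- libraries, against 110, 91.7 and 186 ppm in the fl/fl libraries. The groups did not overlap, and the log2 difference was 0.78 ± 0.23 (SE, limma adjusted p = 0.227), or 1.07 ± 0.17 with an adjusted p of 0.00126 without fl/fl replicate 3. Klf15, a factor known to promote Slc2a4 expression, had 54.4, 82.6 and 90.8 ppm in CS-Mpc2-/- and 118, 163 and 99.4 ppm in fl/fl, also without overlap, and a difference of -0.74 ± 0.23 (limma adjusted p = 0.253). Klf15 stood at -0.89 ± 0.23 without fl/fl replicate 3 (limma adjusted p = 0.0237). Of 11 genes of insulin signalling, 5 differences were positive and 6 negative. There Pik3r1, the regulatory subunit of the insulin-activated lipid kinase, stood at -0.65 ± 0.25 and Akt2, the kinase that acts on Tbc1d4, at -0.37 ± 0.16 (SE, limma adjusted p = 0.303 and 0.359). When fl/fl replicate 3 was left out they stood at -0.84 ± 0.23 for Pik3r1, with a limma adjusted p of 0.0342, and -0.45 ± 0.17 for Akt2, with 0.110.

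Below the phosphofructokinase step, 8 of 11 lower glycolysis genes had positive and 3 negative differences, with a median of 0.32 on the log2 scale against 0.04 for all genes. With the transcript length trend removed, 7 were positive and 4 negative, with a median of 0.23 against 0.004 for all genes. Pgam1, the brain-type phosphoglycerate mutase, had 75.0, 71.3 and 65.6 ppm in the CS-Mpc2-/- libraries, against 31.6, 27.8 and 63.9 ppm in the fl/fl libraries, and a log2 difference of 0.86 ± 0.27 (SE, limma adjusted p = 0.247). Pgk1, phosphoglycerate kinase, had 117, 119 and 114 ppm in CS-Mpc2-/- and 79.2, 68.8 and 106 ppm in fl/fl, and a difference of 0.49 ± 0.18 (limma adjusted p = 0.301). In both genes fl/fl replicate 3 was the fl/fl library nearest to CS-Mpc2-/-. Without fl/fl replicate 3, 3 of the 11 were called higher, namely Pgam1, Pgk1 and Gapdh, and 2 lower, namely Pgam2 and Ldhb, the muscle-type mutase and the heart-type lactate dehydrogenase subunit. In that setting 6.51% of all genes were called higher and 4.4% lower.

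In the lists of lesser isoforms, differences were positive for 2 of 5 other transporters, 2 of 4 other hexokinases and glucose 6-phosphatases, and 2 of 3 other fructose bisphosphate enzymes, and the rest were negative. For every gene of the table the larger group mean was at least 700 units of the deposited values. A low gene can thus be listed through its higher group alone, so the signs of low genes such as Hk3 are descriptive only. The transporter gene Slc2a10, whose product is found in intracellular membranes, had 8.49, 6.64 and 3.75 ppm in CS-Mpc2-/- and 1.11, 3.57 and 3.45 ppm in fl/fl, a log2 difference of 1.0 ± 0.42 (SE, limma adjusted p = 0.332). Slc2a12 had 5.52, 3.63 and 6.22 ppm in CS-Mpc2-/- and 6.86, 11.5 and 6.64 ppm in fl/fl, a difference of -0.60 ± 0.32 (limma adjusted p = 0.442). In both genes the groups lay apart by a narrow margin. Hk3, a hexokinase of blood cells, had 4.75, 3.75 and 2.05 ppm in CS-Mpc2-/- and 2.57 and 1.29 ppm in replicates 2 and 3 of fl/fl, and was at the smallest step in replicate 1 of fl/fl. Fbp2, the muscle fructose bisphosphatase that opposes phosphofructokinase, had 2.36, 1.98 and 4.27 ppm in CS-Mpc2-/- and 15.6, 13.5 and 4.08 ppm in fl/fl. Its log2 difference was -1.51 ± 0.45 (SE, limma adjusted p = 0.231), and as for Pfkfb1 the replicate 3 libraries were nearly equal. The Fbp2 difference was -2.05 ± 0.37 without fl/fl replicate 3 (limma adjusted p = 0.00329). Pfkfb3 stood at 0.25 ± 0.25. Of the 3 channels that dock hexokinase at mitochondria 1 had a positive difference and 2 a negative one, where Vdac2 stood at 0.24 ± 0.17 and Vdac1 at -0.22 ± 0.17 (SE, limma adjusted p = 0.567 and 0.582).

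**Figure D4:**
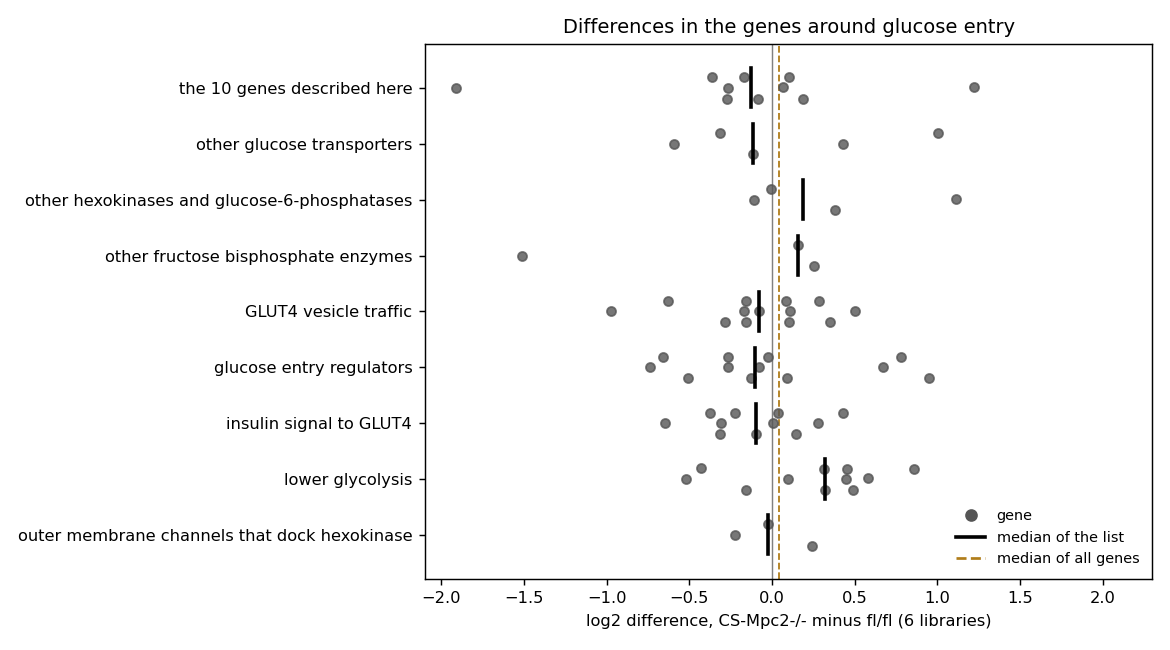
Log2 differences, CS-Mpc2-/- minus fl/fl, of the 10 genes and of the measured members of 8 related lists, with all 6 libraries. Each point is a gene, the black bar is the median of its list and the dashed line the median of all genes (0.04). The median was 0.32 for lower glycolysis and between -0.13 and 0.19 for the others.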

How the data were processed

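Left ventricular RNA of 3 CS-Mpc2-/- and 3 fl/fl pools was depleted of ribosomal RNA and sequenced on an Ion Torrent Proton, per the labels' protocols. The deposited values are a coverage signal per gene that the authors had scaled to nearly the same total per library, as read from the values. The deposited ratio is that of the group means, and the deposited p-value equals an equal-variance test of linear values to within 5.87e-09. Per the submitters' processing notes the genome build is mm10. No label or header names the aligner, the counter or the strand setting, and reads could not be recovered, so counting intervals are not given.

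Each value was converted to ppm of its library's sum and tested as log2(ppm + 1) by limma 3.58.1 (trend, two-sided) in R 4.3.3 with Benjamini-Hochberg adjustment over 12072 genes. A filter at a mean of 1 ppm removed 0 genes, because the lowest gene mean in the authors' table was 1.54 ppm. That table holds no gene with both group means under 700 units of the deposited values. Shares given for all genes therefore describe this limited set, not every mouse gene. The fold of low genes is understated on the log2(ppm + 1) scale. Isoform shares used ppm per kilobase of the longest coding GENCODE M21 transcript and an exact two-sided permutation test (20 arrangements, smallest p 0.1). The limma step was tested on simulated data. All 10 members were named, and in each list the 2 genes with the smallest unadjusted p, since 0 passed; other genes were named after their values were seen. A gene named by this rule is not reported here. Members and lists were chosen with earlier results of these data known. Alternatives were 2 other scalings, pseudocounts of 0.1 and 5 ppm, no filter, a mean of 5 ppm, no trend, robust estimation, a replicate block, libraries left out, other lengths and families for shares, and, added after the data were seen, removal of the length trend.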

Additional observations from a re-analysis of the deposited data

How the results depend on the processing

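Leaving out 1 library at a time gave 0 to 1317 genes called over the whole table, 0 to 2 of the 10 members and 0 to 14 genes of the 8 lists, with the upper end of each without fl/fl replicate 3 and 0 without any other library. Without replicate 3 of both groups the counts were 1514, 5 and 22, and the Mpc2 difference was -1.30, with a limma adjusted p of 0.00279 (0.00279 to 0.818 over all its settings, and -1.11 to -0.32 for the difference with 1 library left out). The other 10 settings called 0 genes. With the length trend removed the Mpc2 difference was -0.80 (limma adjusted p = 0.366). The replicate 3 libraries were singled out by these same values, so calls made without them are descriptive only. Among the members, sign changes came from leaving libraries out: Slc2a1 ranged from -0.11 to 0.30, Hk1 from -0.41 to 0.10, with 0.090 when replicate 3 of both groups was left out, and Pfkl from -0.035 (without CS-Mpc2-/- replicate 1) to 0.19. Pfkfb1 stayed negative, from -2.88 to -1.22, and Pfkp positive, from 0.84 to 2.00, with limma adjusted p-values from 0.000266 to 0.769 and 2.57e-05 to 0.769. Of 57 alternative values of the isoform shares, 56 kept their direction. The share of Hk2 ranged from -7.09 to 0.63 points with 1 library left out, and was -9.00 points without replicate 3 of both groups and -9.49 points over every listed gene of its family. The Pfkfb1 share difference was -20.5 to -7.22 points, the smallest without division by length. No other listed gene belonged to the phosphofructokinase family, so its share has no wider family. The cause of these changes was not tested.

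Replicate numbers are not stated to pair animals, and the deviations of same-numbered libraries correlated at 0.0746, -0.0379 and -0.0735. Those of differently numbered libraries correlated at -0.131 to 0.1425. With the replicate number as a block, 0 genes and 0 members were called, and the limma adjusted p was 0.274 for Pfkfb1 and 0.282 for Pfkp. Low coverage limits genes of a few ppm, such as Pfkfb1 and Fbp2.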
